A study of Mus musculus with 4 samples.

Results

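Intergenic distal Eya1 intervals were the stretches of Eya1-occupied chromatin that lay away from annotated genes. The peak lists of the 2 Eya1 ChIP-seq replicates were joined wherever peaks touched or overlapped, which gave 5482 merged intervals on the nuclear chromosomes. An interval was kept when it lay more than 3 kb from every transcription start site (TSS) of GENCODE release M21 and overlapped no gene body, whatever the gene's type. This left 259 members, which are described here beside 241 intronic distal intervals that met the same TSS distance inside a gene body and touched no exon. The chromatin came from kidneys of E13.5 mouse embryos that carried the Eya1 HA-FLAG knockin allele, a tagged version of the endogenous gene, and each assay pooled 80 kidneys and pulled the tagged protein down with anti-FLAG beads. Beside the 2 replicates the study had an input and an IgG control, so that there were 4 samples in all, of the same stage. Whole kidneys were used, so a peak cannot be assigned to a cell type, and the labelled tissue could not be checked against marker genes from lists of peaks. The lists hold positions only, so the depth behind a peak is unknown, and every share carries an exact 95% binomial interval and every difference a Newcombe interval, which cover counting error over regions alone. The 5 members closest to the 3 kb limit lay 3022, 3091, 3116, 3227 and 3256 bp from a TSS, and the 5 gene-free intervals just outside it lay 2995, 2567, 2340, 2187 and 1869 bp away.

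Eya1 is a transcriptional coactivator and phosphatase with no DNA-binding domain of its own, and it maintains nephron progenitor cells in the developing kidney. REST, also called NRSF, is a zinc-finger repressor that keeps neuronal genes silent outside the nervous system by recruiting histone deacetylases and other corepressors. It recognises RE1, an element made of a left arm and a right arm with a short spacer between them, and it is also known to bind the arms at other spacings. RE1 was searched here on both strands as a 17-bp consensus that accepts more than 1 base at some positions. A window of 200 bp around the interval midpoint counted as a match when no more than 2 positions failed, and an exact match failed at none. A match is a property of the sequence and not a measurement of REST.

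The elements below show the best match over the window and the whole interval. They are given for members within 200 kb of loci named in the study and for the genes with the most members (where the match failed at no more than 1 position). They are also given for the 10 members of both replicates with an exact match and the widest replicate 2 peak. The elements at Chga, Lrfn3, Rprml, Tcerg1l, Kif13b, 4931429L15Rik and Kif26a lay outside the window. Except at Tcerg1l, these members counted as without RE1 wherever the window was used. The 17 searched bases are in capitals, 10 flanking bases on either side are in lower case, and each is read 5′ to 3′ from GRCm38 (mm10) on the strand of the match.
Chga, chr12:102550694-102550710, plus strand: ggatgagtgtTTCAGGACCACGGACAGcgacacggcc
Rph3a, chr5:121068883-121068899, plus strand: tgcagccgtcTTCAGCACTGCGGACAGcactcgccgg
Lrfn3, chr7:30346807-30346823, plus strand: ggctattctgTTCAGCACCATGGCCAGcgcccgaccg
Rprml, chr11:103656723-103656739, minus strand: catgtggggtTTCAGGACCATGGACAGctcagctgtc
Arf2, chr11:104053440-104053456, minus strand: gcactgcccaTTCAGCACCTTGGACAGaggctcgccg
Hace1, chr10:45547011-45547027, minus strand: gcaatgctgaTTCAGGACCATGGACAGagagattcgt
Igsf21, chr4:140283569-140283585, minus strand: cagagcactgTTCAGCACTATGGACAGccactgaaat
Igsf21, chr4:140358293-140358309, plus strand: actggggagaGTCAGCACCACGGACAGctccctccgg
Ajap1, chr4:153189695-153189711, minus strand: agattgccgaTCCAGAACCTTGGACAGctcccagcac
Ajap1, chr4:153357714-153357730, plus strand: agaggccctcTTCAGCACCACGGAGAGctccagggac
Kcnk9, chr15:72568661-72568677, minus strand: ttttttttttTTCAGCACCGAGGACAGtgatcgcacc
Tunar, chr12:105322462-105322478, minus strand: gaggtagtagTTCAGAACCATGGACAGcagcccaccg
Tcerg1l, chr7:138084071-138084087, plus strand: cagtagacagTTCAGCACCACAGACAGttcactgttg
Matn1, chr4:131115464-131115480, minus strand: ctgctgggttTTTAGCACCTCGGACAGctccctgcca
Zc3h12a, chr4:125300710-125300726, plus strand: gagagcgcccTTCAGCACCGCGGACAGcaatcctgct
Kif13b, chr14:64568772-64568788, minus strand: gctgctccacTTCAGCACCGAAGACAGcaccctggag
4931429L15Rik, chr9:46642891-46642907, plus strand: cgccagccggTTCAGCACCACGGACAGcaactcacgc
Prdm11, chr2:93071844-93071860, minus strand: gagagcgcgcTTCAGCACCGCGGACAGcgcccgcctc
Kif26a, chr12:112141473-112141489, minus strand: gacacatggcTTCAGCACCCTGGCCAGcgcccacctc
Rgr, chr14:37016067-37016083, plus strand: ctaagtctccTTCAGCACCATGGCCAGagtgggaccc

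The question addressed first was how far the replicates shared these intervals. Both lists covered 73 of the 259 members. A further 170 were in replicate 2 alone and 16 in replicate 1 alone. The shared fraction was 28.2% (22.8 to 34.1), against 44.2% of all merged intervals. Replicate 1 therefore listed 89 members and replicate 2 listed 243, although replicate 2 had the shorter list, with 4164 peaks on the nuclear chromosomes. Intronic distal intervals were covered by both in 27.4% of cases, and the difference of 0.799 percentage points had a 95% Newcombe interval of -7.06 to 8.59.

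The replicates also differed in the shape of their peaks. Replicate 1 peaks in members had a median width of 404 bp (range 168 to 1350), and replicate 2 peaks had a median of 158 bp (117 to 592). In both lists these peaks were narrower than those of the remaining merged intervals, whose medians were 1079.5 bp and 192 bp. Peaks in intronic distal intervals had medians near those of the members, 439.5 bp in replicate 1 and 157 bp in replicate 2. Width of the replicate 2 peak went with coverage by replicate 1. Among replicate 2 peaks of 117 to 142 bp, replicate 1 also listed 7 of 81 members (8.64%, 3.55 to 17.0), among those of 143 to 174 bp it listed 16 of 81 (19.8%, 11.7 to 30.1), and among those of 175 to 592 bp it listed 50 of 81 (61.7%, 50.3 to 72.3). The number of mismatches in the best RE1 match showed no such order, since replicate 1 listed 26.9% (16.8 to 39.1) of replicate 2 members with an exact element, 29.8% with 1 mismatch, 29.8% with 2 and 35.6% (21.9 to 51.2) of those without a match.

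**Figure D1:**
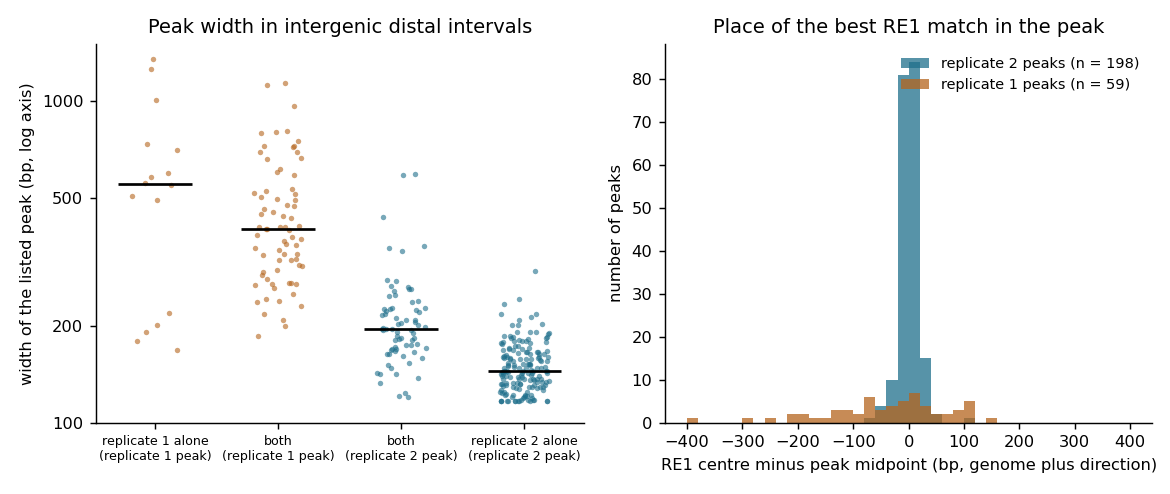
Left, width in bp (log axis) of each listed peak in the members, split by coverage and by replicate, with the median as a bar. Right, distance in bp from the peak midpoint to the centre of the best RE1 match in the peak, in bins of 20 bp; replicate 2 peaks (n = 198) gather at the midpoint and replicate 1 peaks (n = 59) spread from -392 to 145.5 bp.

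RE1 was present in the window of 181 of 259 members (69.9%, 63.9 to 75.4). The background over all merged intervals was 11.6%, and windows 1 kb to either side of the members held RE1 in 10 of 518 cases (1.93%, 0.930 to 3.52). An exact match stood in 61 members (23.6%, 18.5 to 29.2), against 3.12% of all merged intervals. Over the whole interval rather than the window, RE1 was found in 200 members (77.2%, 71.6 to 82.2), against 20.9% of all merged intervals. Intronic distal intervals held RE1 in 73.4% of windows, and the difference from the members was -3.56 percentage points (Newcombe interval -11.4 to 4.36). Among members with RE1, 33.7% had no mismatch, 41.4% had 1 and 24.9% had 2. Intronic distal intervals with RE1 were alike, at 32.2%, 40.7% and 27.1% in the same order. Of promoter-proximal intervals with RE1, 61.0% (53.9 to 67.7) had 2. At least 2 matches lay in the whole interval of 26 members (10.0%, 6.66 to 14.4). The same held for 20 of 241 intronic distal intervals (8.30%, 5.14 to 12.5).

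The share with RE1 differed by replicate coverage. Members in replicate 2 alone held RE1 in 141 of 170 windows (82.9%, 76.4 to 88.3) and members in replicate 1 alone in 1 of 16 (6.25%), a difference of 76.7 percentage points (Newcombe interval 53.7 to 83.8). Members in both replicates held it in 39 of 73 windows (53.4%, 41.4 to 65.2), and in 57 of 73 (78.1%, 66.9 to 86.9) over the whole interval. The gap between both replicates and replicate 2 alone was -29.5 percentage points in the window (-41.9 to -16.8) and -4.86 (-16.7 to 5.33) over the whole interval. The position of the element inside the peak differed in the same way. In replicate 2 peaks the best RE1 centre lay a median of 9 bp from the peak midpoint, and within 25 bp in 177 of 198 peaks (89.4%, 84.2 to 93.3). In replicate 1 peaks the median was 71.0 bp, and 14 of 59 peaks (23.7%, 13.6 to 36.6) had the centre within 25 bp. The offset along the direction of the element had a median of -2.50 bp in replicate 2 and 4.00 bp in replicate 1 (ranges -109.5 to 58 and -392 to 258.5), and the replicate 1 peaks spread to both sides of the element.

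Within the 181 elements, the 17 searched positions were not equally conserved. Positions 4 and 8 were A and C in all 181, and positions 5, 7 and 16 kept 1 base in 99.4%. Mismatches fell at position 1 in 65 elements, at position 6 in 44, at position 2 in 26 and at position 9 in 11. Bases beyond the searched stretch, which the search did not use, were also uneven on the right side only. C made up 66.9% at position 18, 60.2% at position 20 and 68.0% at position 21, and position 19 was G in 42.0%, T in 29.3% and A in 27.1%. On the left side the most frequent base reached 36.5% at the position next to the element and 32.0% or less at the next 7.

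Exact RE1 elements were then followed in the sequence that members could have come from, the 1299 Mb more than 3 kb from any TSS and outside gene bodies. It held 258 exact elements of 708 in the nuclear genome, and 68 of them (26.4%, 21.1 to 32.2) lay inside a member. All 68 were inside a replicate 2 peak and 19 were also inside a replicate 1 peak. Elements with 1 mismatch were inside a peak in 100 of 5546 cases (1.80%, 1.47 to 2.19), and elements with 2 in 70 of 76147 (0.0919%). The share of elements inside a peak was higher with more C at positions 18, 20 and 21. Of exact elements with C at none of these positions, 5 of 104 lay inside a peak (4.81%, 1.58 to 10.9). The share was 22 of 85 (25.9%, 17.0 to 36.5) with 1 C, 21 of 40 (52.5%, 36.1 to 68.5) with 2 and 20 of 29 (69.0%, 49.2 to 84.7) with 3. With 1 mismatch in the element, the shares were 0.176%, 0.935%, 7.56% and 33.3% in the same order. The positions were picked after the composition of the members was seen, so the intergenic shares describe the elements they were picked from. Exact elements in gene bodies more than 3 kb from a TSS, which were not used in picking them, were inside a peak in 3 of 82 cases (3.66%, 0.761 to 10.3), 18 of 93 (19.4%), 33 of 73 (45.2%) and 17 of 20 (85.0%, 62.1 to 96.8). The order was the same in both sets. Intervals of neighbouring steps did not overlap in gene bodies, and in the intergenic set they overlapped between 1 and 2 C and between 2 and 3.

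**Figure D2:**
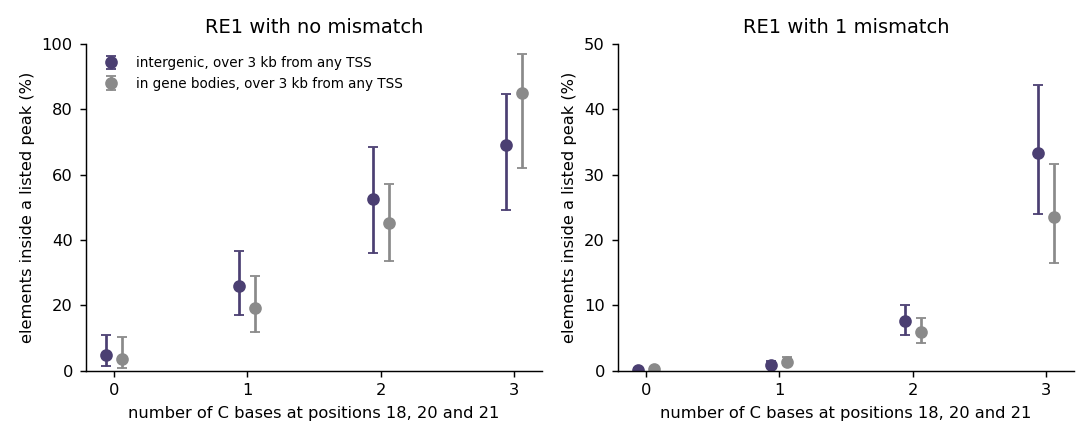
Share of RE1 elements (%) that lay inside a listed peak of either replicate, by the number of C bases at positions 18, 20 and 21, for elements with no mismatch (left) and 1 mismatch (right; the axis ends at 50%). Points are intergenic elements and elements in gene bodies, all more than 3 kb from any TSS, and bars are exact 95% binomial intervals; the exact intergenic elements climb from 4.81% to 69.0%.

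In 59 members no RE1 match was found in either the window or the interval. These were searched for the arms singly, with the left arm as TTCAGCACC and the right arm as GGACAGCG, at most 1 mismatch in each, on both strands and at any spacing from 0 to 20 bp. In RE1 itself the arms are 2 bp apart. This search was added after the data were seen. Both arms in the RE1 order stood 7 to 10 bp apart in 13 of the 59 (22.0%, 12.3 to 34.7) and 0 or 1 bp apart in another 5 (8.47%, 2.81 to 18.7), and 1 of these members also held a pair 19 bp apart. With no mismatch allowed in either arm, only 2 of the 18 pairs were found (3.39% of the 59, 0.413 to 11.7). Spacings from 3 to 6 bp were not seen, and the spacing of 2 bp had largely been removed by the choice of members without RE1. In flanks of these 59 members, matched to each in width, 0 of 118 stretches held both arms at any spacing searched, which allows a share of up to 3.08%. Intronic distal intervals without RE1 held the arms 7 to 10 bp apart in 8 of 48 cases (16.7%, 7.48 to 30.2) and 0 or 1 bp apart in 2.

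Examples at 7, 8, 9, 1 and 0 bp are printed with the arms in capitals and the spacer and 4 flanking bases in lower case.
Mc3r, 7 bp apart, chr2:172241204-172241227, minus strand: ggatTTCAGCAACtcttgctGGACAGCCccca
Ptpn11, 7 bp apart, chr5:121078703-121078726, minus strand: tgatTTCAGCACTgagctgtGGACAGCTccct
Plxna1, 7 bp apart, chr6:89242527-89242550, plus strand: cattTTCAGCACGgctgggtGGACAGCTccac
Mroh5, 8 bp apart, chr15:73957626-73957650, plus strand: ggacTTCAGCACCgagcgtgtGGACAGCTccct
Klhl29, 8 bp apart, chr12:6042517-6042541, plus strand: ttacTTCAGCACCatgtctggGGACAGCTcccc
Msra, 8 bp apart, chr14:64546974-64546998, plus strand: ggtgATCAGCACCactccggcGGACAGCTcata
Adra2c, 9 bp apart, chr5:35299804-35299829, minus strand: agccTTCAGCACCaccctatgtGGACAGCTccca
Gpatch2l, 9 bp apart, chr12:86213259-86213284, minus strand: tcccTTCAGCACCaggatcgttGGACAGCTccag
Lrfn2, 9 bp apart, chr17:48917606-48917631, minus strand: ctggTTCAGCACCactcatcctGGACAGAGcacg
Olfr223, 1 bp apart, chr11:59584732-59584749, minus strand: gtgtTTCAGCACCtGGACAGCGcctc
Erc2, 1 bp apart, chr14:27596477-27596494, minus strand: ttcaTTCAGCACCtGGACAGCTcccc
Kcnj6, 0 bp apart, chr16:95093962-95093978, minus strand: ttccTTCAGCACTGGACAGCAgctg

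Sequence of chromosome 18 was not tallied here. On the other chromosomes the right arm ended in T rather than G in 8 of the 11 pairs at 7 to 10 bp, and the left arm was without mismatch in 6 of them. Paired arms were found in both replicates' lists. Of the 18 members with such a pair, 10 were covered by both replicates, out of 16 such members without RE1 (62.5%, 35.4 to 84.8), and 8 by replicate 2 alone, out of 29 (27.6%, 12.7 to 47.2). None of the 14 members without RE1 in replicate 1 alone held one, which allows a share of up to 23.2%. The genes nearest to these pairs included Adra2c, an adrenergic receptor, Kcnj6, a potassium channel, Erc2, a protein of the presynaptic active zone, Lrfn2, a synaptic adhesion protein, and Cacng5, a calcium channel subunit.

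A further 24 of the 59 held the right arm alone (40.7%, 28.1 to 54.3), 3 held the left arm alone and 4 held both arms without pairing, whereas the flanks of these 59 members held the right arm alone in 16 of 118 stretches (13.6%, 7.95 to 21.1). With no mismatch allowed, the right arm alone was in 6 of the 59 (10.2%, 3.82 to 20.8) and in 0 of the 118. With RE1, paired arms and single arms together, 249 of 259 members (96.1%, 93.0 to 98.1) had some match, and 115 of 518 flanking stretches (22.2%, 18.7 to 26.0) did. With no mismatch allowed in an arm, these shares were 216 of 259 (83.4%, 78.3 to 87.7) and 11 of 518 (2.12%, 1.06 to 3.77), and the members with no match numbered 43 instead of 10. The 10 members with no arm at up to 1 mismatch comprised 4 in replicate 1 alone, 5 in replicate 2 alone and 1 in both. Among them were a pair in replicate 2 alone, 3.30 and 3.94 kb from the GENCODE start of Tnrc18, which lay inside Tnrc18 in the RefSeq annotation.

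**Figure D3:**
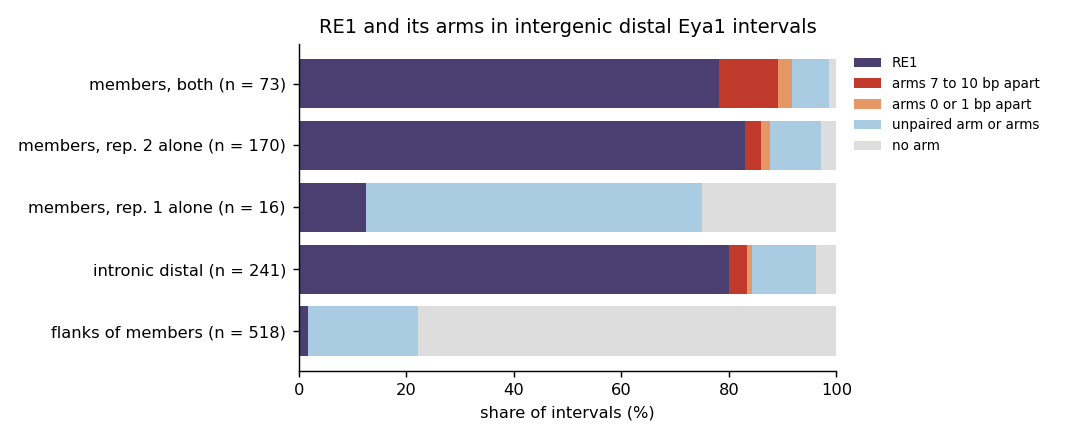
Share of intervals (%) by what their sequence held, for members of both replicates and of each replicate by itself, for intronic distal intervals and for flanking stretches of the same width. RE1 makes up 78.1% of members in both, 82.9% of those in replicate 2 alone, 12.5% of those in replicate 1 alone and 1.74% of flanks.

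**Figure D4:**
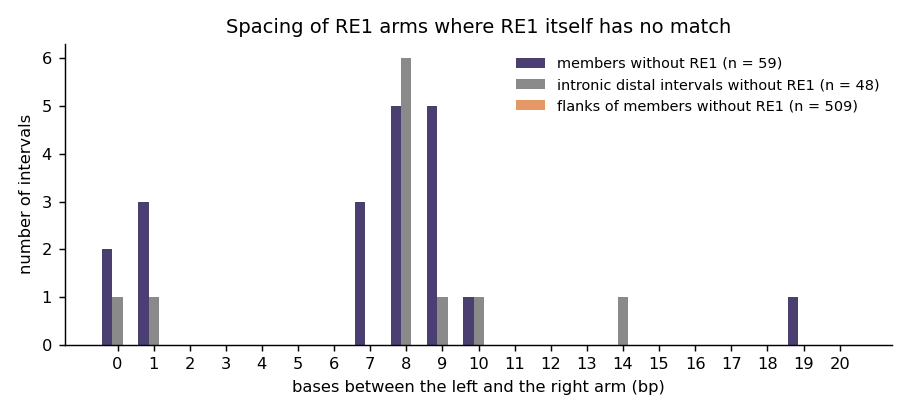
Number of intervals without RE1 in which the left and right arm stood a given number of bases apart, for members (n = 59), intronic distal intervals (n = 48) and flanks of members (n = 509, no bar). The bars of the members stand at 0 and 1 bp, at 7 to 10 bp and once at 19 bp.

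The 16 members of replicate 1 alone differed from the rest in sequence. Their windows had a median GC content of 61.8% (range 42.5 to 74.0) and a median ratio of observed to expected CpG of 0.742, against 50.5% and 0.259 in replicate 2 alone and 52.0% and 0.265 in both. By a limit chosen after the values were seen, a window with at least 55% GC and a CpG ratio of at least 0.6 was seen in 9 of 16 (56.2%, 29.9 to 80.2), in 2 of 73 members of both and in 4 of the 170 that replicate 2 listed by itself, beside 75.5% of the merged intervals that were not members. Of the 16, 7 overlapped a gene in the RefSeq annotation that GENCODE M21 did not place there. The widest, chr17:83861450-83862799 upstream of Haao, held a RefSeq tRNA gene, and chr1:171101749-171102752 near Cfap126 held another 2. Overlaps with RefSeq protein-coding genes fell at Zfp869, Arhgap32, a GTPase-activating protein, and Tln2, a cytoskeletal linker. Across all 259 members, 35 overlapped a RefSeq gene, which was long noncoding in 21 and protein-coding in 11. Thus some members were intergenic by GENCODE and genic by RefSeq. RE1 lay in the interval of 2 of the 16, upstream of Adgrl1, an adhesion receptor of neurons, and of Arid1b, a subunit of the SWI/SNF chromatin remodelling complex, and each had 2 mismatches.

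The members were far from genes but closer than the whole of the sequence that members could have come from. Their median distance to the nearest protein-coding TSS was 49.6 kb (quartiles 14.8 and 119 kb, range 3.09 to 702), and the same distance over the eligible sequence, read every 100 bp, had a median of 126 kb (quartiles 34.9 and 355). The eligible sequence included chromosome Y, which made up 5.70% of it and held no merged interval. Of the members, 43 lay within 10 kb (16.6%, against 7.84% of the eligible sequence) and 7 beyond 500 kb (2.70%, against 17.1%). They were upstream of the nearest start in 160 of 259 cases (61.8%, 55.6 to 67.7). The same share of the eligible sequence was not computed, and the rule left out gene bodies, which extend downstream of a start. Intronic distal intervals had a median of 28.5 kb. The most remote members were all in replicate 2 alone, at 702 kb from Kdm8, 667 kb from Klhl29, 620 kb from Dnah5, 611 kb from Fam19a5 and 603 kb from Vrk1, and each held RE1 except the one near Klhl29, whose arms stood 8 bp apart. The share of exact RE1 elements that lay inside a peak was 26.5% (12.9 to 44.4) within 10 kb of a protein-coding TSS, 31% at 10 to 50 kb, 30.2% at 50 to 100 kb, 22.2% at 100 to 500 kb and 20.0% (5.73 to 43.7) beyond, and these intervals all overlapped. For elements with 1 mismatch, the same shares ran from 3.76% (2.31 to 5.75) to 0.161% (0.00408 to 0.895).

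**Figure D5:**
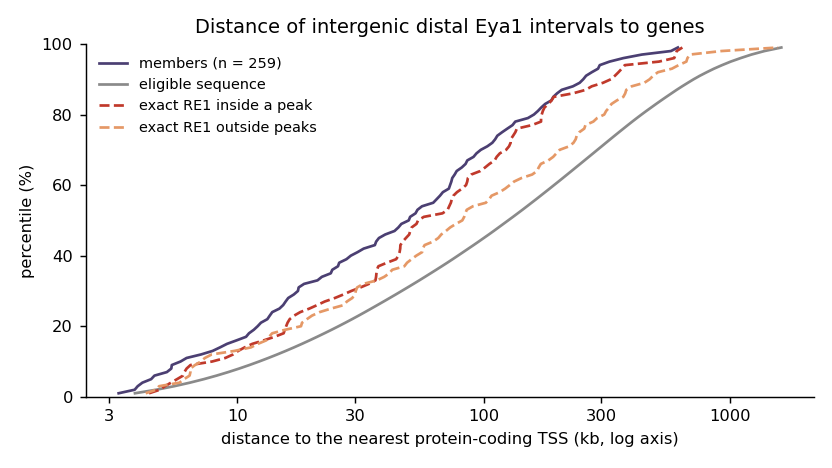
Percentile (%) against distance in kb (log axis) to the nearest protein-coding TSS for the 259 members, for the eligible sequence, and for exact RE1 elements inside and outside a listed peak. The line of the members crosses 50% at 49.6 kb and that of the eligible sequence at 126 kb.

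The nearest protein-coding genes numbered 235, of which 213 were nearest to 1 member, 20 to 2 members and 2 to 3 members. Genes of neuronal families, fixed by name patterns, were nearest to 42 members (16.2%, 11.9 to 21.3). The same families were nearest to 9.45% of the eligible sequence, to 24 of its 258 exact RE1 elements (9.30%) and to 21.2% (16.2 to 26.9) of intronic distal intervals, and they make up 2.98% of protein-coding genes. The share was 17.8% in members of both replicates, 17.1% where only replicate 2 had a peak and 0 of 16 where only replicate 1 did, which allows up to 20.6%. Exact elements nearest to a neuronal-family gene were inside a peak in 11 of 24 cases (45.8%, 25.6 to 67.2) and the others in 24.4% of cases.

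Among neuronal families, adhesion and guidance genes were nearest to 10 members, neurogenic transcription factors to 7, RNA-binding proteins of neurons to 5, and potassium and calcium channels to 4 each. Adhesion and guidance genes were thus nearest to 3.86% (1.87 to 6.99) of members and to 5.09% of the eligible sequence. The other shares were 2.70% against 0.755% for neurogenic transcription factors, 1.93% against 0.735% for RNA-binding proteins, 1.54% against 0.986% for potassium channels and 1.54% (0.422 to 3.91) against 0.0777% for calcium channels. Sodium channels and Hox genes, nearest to 0.0448% and 0.0285% of the eligible sequence, had none, which shares of this size leave uninformative. The potassium channel genes were Kcnh2 (5.93 kb, exact RE1, replicate 2 alone), Kcnk9 (22.2 kb, exact, both), Kcnj6 (96.1 kb) and Kcnd3 (177 kb, exact, replicate 2 alone). The calcium channel genes were Cacng5 at 5.16 kb, Cacna1i at 9.21 kb, Cacna2d2 at 17.7 kb and Cacng4 at 22.8 kb. Receptors for transmitters comprised Grik3 and Gria1 for glutamate, Glra1 for glycine, Htr6 and Htr7 for serotonin and Drd1 for dopamine, and each of the 6 members held RE1 with 1 or 2 mismatches. The transporters Slc32a1, which loads inhibitory transmitters into vesicles, and Slc6a11, which takes up GABA, had members at 25.9 and 43.9 kb with RE1 at 1 and 0 mismatches. Of the neurogenic transcription factors, Insm1 had a member at 4.73 kb, Pou4f2 at 4.99 kb with an exact element in both replicates, and Neurod2 had members at 5.41 and 15.3 kb in replicate 2 alone. Among adhesion and guidance genes, Unc5a lay 3.81 kb away, Nrxn3, a presynaptic adhesion protein, 13.3 kb away with an exact element in both replicates, Pcdh8 14.2 kb away and Lrfn2 14.7 kb away. Rbfox1, a splicing regulator, had members at 3.23 and 120 kb, its paralog Rbfox3 at 15.6 kb with an exact element and Elavl4 at 103 kb. The cytoskeletal genes Stmn3 and Map1b had members at 12.2 kb, with the right arm alone, and 47.9 kb, with an exact element. Apart from Hox genes, the kidney lists had 1 member each. These were nearest to Lhx1 among developmental regulators, at 137 kb with an exact element in replicate 2 alone, and to Rph3a in the podocyte list. Each was 0.386% of members, against 0.388% of the eligible sequence for developmental regulators and 0.181% for podocyte genes, too few to compare. Both genes also stood in a neuronal list.

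The genes with 3 members each were Igsf21, a synaptic adhesion protein, and Ajap1, an adherens junction protein. The members of Igsf21 stood 12.1, 36.6 and 111 kb upstream and were covered by both replicates, with replicate 2 peak widths of 590, 222 and 171 bp and 2, 1 and 1 mismatches. Those of Ajap1 stood on both sides of the gene, at 124 and 292 kb downstream in replicate 2 alone and at 196 kb upstream in both. Most members had no other member within 50 kb, at a density of 0.199 members per Mb of eligible sequence. The share that an even spread would give was not computed. In all, 24 of 259 (9.27%, 6.03 to 13.47) were within 50 kb of another member and formed 12 runs of 2, whereas 19.5% (14.7 to 25.1) of intronic distal intervals were within 50 kb of another intronic distal interval. The tightest run was the pair at Tnrc18, which spanned 0.801 kb and held no RE1. The pairs at Mrm1, which spanned 5.23 kb, and Neurod2, which spanned 10.1 kb, held RE1 in each interval.

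Of the loci looked up because the study described them, 5 had a member within 200 kb of a TSS. At Chga, which encodes the secretory granule protein chromogranin A, a member of both replicates lay at chr12:102550582-102551083, 4.14 kb upstream, with 1 mismatch. At Rph3a, which encodes a vesicle trafficking protein, a member of both replicates at chr5:121068781-121069049 lay 58.8 kb upstream with 1 mismatch. Another member of both replicates lay 68.7 kb upstream of Rph3a, was nearest to Ptpn11 and held arms 7 bp apart in place of RE1. At Nphs1, which encodes nephrin of the podocyte slit diaphragm, the member at chr7:30346631-30347219 was 111 kb upstream and its nearest gene was Lrfn3, at 15.6 kb. Within 200 kb of Nsf, a fusion ATPase, lay 3 members, at 167 kb downstream in both replicates and at 99.4 and 161 kb upstream in replicate 2 alone. Their nearest genes were Rprml, Arf2 and Crhr1, and the last held no RE1. The member at Lin28b, which encodes an inhibitor of let-7 processing, lay 60.6 kb upstream in replicate 2 alone and was nearest to Hace1. No member lay within 200 kb of Pax2, Podxl, Chgb, Ptprn, Cyp11a1 or Slc13a3. The paper describes Eya1 sites with a REST motif upstream of Pax2 and Podxl, both closer than 200 kb. Whether those sites had no listed peak or were left out by the rule was not examined. The sites with a REST motif that it describes at Chgb and Rph3a (promoter) and at Ptprn, Slc13a3, Nphs1 and Nsf (intronic) could not be members by the rule. The members listed here near Rph3a, Nphs1 and Nsf are therefore not those sites.

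The 10 members of both replicates with an exact element in the whole interval and the widest replicate 2 peak were led by one 22.2 kb from Kcnk9. Its replicate 2 peak was 355 bp wide. It was followed by Tunar, a neural noncoding locus with a small open reading frame, at 11.2 kb and 342 bp, and Tcerg1l at 187 kb and 277 bp. The remaining 7 had replicate 2 peaks of 205 to 264 bp and lay 4.46 kb (Kif26a) to 323 kb (4931429L15Rik) from the nearest protein-coding TSS. The 5 widest members without RE1 were 720 to 1350 bp wide. Those nearest to Haao, Cfap126 and Zfp825 were in replicate 1 alone with the right arm only, and those nearest to Skor2 and Gpatch2l were in both replicates with arms 7 to 10 bp apart.

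Each of the other motifs was rarer in member windows than RE1. GGGGCGGGG, an SP site, was in 1 of 259 member windows (0.386%), in 0.579% of flanking windows and in 7.99% of all merged intervals, and CCGGAAGT, an ETS site, and AAGATGGCG, a YY1 site, were in none, which allows up to 1.41%, against 0 and 0.386% of flanking windows and 1.62% and 1.59% of all merged intervals. The CTCF consensus was in 4 members (1.54%) and in 2.12% of flanking windows. TGANTCA, an AP-1 site, was in 4.63% (2.42 to 7.95) of member windows and 5.02% (3.30 to 7.27) of flanking windows. AGGCCTNG, a ZFX site, was in 4.25% (2.14 to 7.47) of member windows and 2.12% (1.06 to 3.77) of flanking windows. AGATAA was in 5.41% (2.99 to 8.90) and 11% (8.44 to 14.02), and TAATTA, a homeobox site, in 1.16% (0.240 to 3.35) and 4.44% (2.84 to 6.59). TCANGTTTC, a SIX2 site, was in 2 members and in 1.93% of flanking windows. Over all merged intervals the shares were 1.37% for CTCF, 1.93% for AP-1 and 7.10% for ZFX. They were 1.86% for AGATAA, 0.456% for TAATTA and 0.255% for SIX2. So AGATAA and TAATTA were rarer in members than in flanks but not rarer than over all merged intervals. Each of these other motifs was searched on both strands without mismatch, except CTCF with at most 1. Windows at least 50% covered by soft-masked repeats made up 5 of 259 (1.93%, 0.630 to 4.45), and none of them held RE1. Intronic distal intervals had 7 of 241 such windows (2.90%, 1.18 to 5.89), also without RE1. Of the positions read every 100 bp over the eligible sequence, 43.7% were soft-masked.

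Members were spread unevenly over chromosomes. Per Mb of eligible sequence there were 0.587 on chromosome 11, 0.417 on chromosome 4 and 0.371 on chromosome 2, and 0.0465 on chromosome 3 and 0.0931 on chromosome 1, against 0.199 over all. In the same order these were 29, 31, 29, 4 and 9 members, on chromosomes with 475, 378, 474, 243 and 321 merged intervals. The merged intervals were thus uneven too, and no interval was computed for the densities. Chromosome X held 7.98% of the eligible sequence and no member, and its 12 exact RE1 elements and 275 elements with 1 mismatch all lay outside peaks. For the exact elements this allows a share of up to 26.5%, which includes the 26.4% seen over all chromosomes, and for those with 1 mismatch up to 1.33%, which lies below the 1.80% seen over all. The lists hold 25 merged intervals on chromosome X, none of them a member.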

How the data were processed

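The authors aligned reads to mm10 with Bowtie according to their methods (the processing notes name HISAT2) and called peaks with MACS at various cutoffs against input or IgG. By their methods, peaks common to both controls were used. For either replicate a list was deposited that, per the files, gives chromosome, start and end only, without score, count or p-value. Which cutoff and control made each list is not given in the sources used here, so the replicates may differ in how peaks were called as well as in chromatin. Of the replicate 2 list, 11 peaks off the nuclear chromosomes were left out. Neither control was analysed here. A locus that was looked up is not reported here. Groups came from the sample titles, and nothing in the labels says whether the replicates were separate pools.

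TSS (132629 positions) and genes were from GENCODE M21, sequences and repeat masking from RefSeq. Shares carry exact Clopper-Pearson intervals and differences Newcombe intervals, both over intervals, which are not replicates, and no p-value was computed. Nearest genes were taken by protein-coding TSS. Named genes followed a rule on locus, number of members, peak width, width without RE1, distance, replicate 1 alone with RE1, and up to 4 genes a family in order of distance, and genes at paired arms, at members without an arm and at RefSeq overlaps were chosen after their values were seen. The members and lists were chosen with earlier results of these data known. Search, merging and intervals were tested on simulated data. Python 3.11.15, NumPy 2.4.6, SciPy 1.17.1, numba 0.67.0 and Matplotlib 3.10.9 were used. Alternatives covered the TSS distance, gene bodies, joining, mismatches, windows and each list left out.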

Additional observations from a re-analysis of the deposited data

How the results depend on the processing

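Across 62 alternatives to 10 results, 38 values were counted as unchanged. For a share, a count or a median this meant staying within the interval or limit of the reported one. For the RE1 differences it meant keeping the sign and whether the interval spanned 0. Thus the difference between replicate 2 alone and replicate 1 alone was counted as unchanged although its size moved. It was 76.7 percentage points as reported, 28.8 (8.47 to 36.0) with 0 mismatches and 84.3 with at most 3. Moving the TSS distance to 1 kb or 10 kb set the median distance to a protein-coding TSS at 43.5 and 74.2 kb, and counting the TSS of any gene set it at 17.7 kb. The share of members with RE1 was 23.6% with 0 mismatches, 52.5% with at most 1, 78.4% with at most 3, 77.2% over the whole interval, 76.4% in a 500-bp window and 76.8% in windows on every listed peak. The RE1 difference between members and intronic distal intervals, whose interval spans 0, changed sign with the 10 kb limit (1.61 percentage points, -7.48 to 10.7). Members within 50 kb of another changed with the distance, to 3.86% at 10 kb, 17.4% at 100 kb and 23.6% with any merged interval. The neuronal-family share was 26.6% with the nearest gene on either side and 11.97% with a TSS within 100 kb only, and neither was set against eligible sequence. The share of RE1 elements inside a member was 2.86% with at most 1 mismatch and 0.288% with at most 2.

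Leaving out replicate 1 and then replicate 2, the number of members was 245 and 89, and the share with RE1 was 81.6% and 44.9%. The difference from intronic distal intervals was 0.960 and -18.6 percentage points, the latter with an interval of -32.7 to -3.20. The median distance was 47.9 and 40.6 kb, clustering 9.80% and 8.99%, the neuronal-family share 17.1% and 14.6%, and the share of exact elements inside a member 26.4% and 7.36%. So the number of members and the covered share of elements rest on replicate 2, and the RE1 difference from introns passed its interval only in replicate 1; the causes were not tested. Over the whole interval, RE1 was in 59 of the 89 members that replicate 1 listed (66.3%, 55.5 to 76.0), against 44.9% in the window. With no mismatch allowed in either arm, paired arms were in 2 of 59 members without RE1 (3.39%) instead of 18, an alternative chosen after seeing the data. No paired analysis was possible because peak positions carry no values to pair and both lists are of 1 group.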

Other observations

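The nearest gene of any type was protein-coding for 116 members, a long intergenic noncoding RNA for 58 and a processed pseudogene for 47.

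Members shared little sequence with each other. A word of 31 bases was common to the windows of 4 members, in 2 pairs, which included the intervals nearest to Gpatch2l and Kcnj6. The matched strand of RE1 was plus in 85 of 181 members (47.0%, 39.5 to 54.5).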
